A study of Mus musculus with 24 samples.

Results

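Haematopoietic stem cells (HSC) of mice with Phf6 deleted were compared with HSC of control littermates, by RNA sequencing of sorted bone marrow cells. The comparison takes in 8 of the 24 libraries of the series, 4 from deleted and 4 from control mice, chosen by their labels for population and Phf6 status, and it covers all 13693 genes that passed a filter on low counts. The remaining libraries are multipotent progenitors (MPP) and the more restricted progenitors named HPC-1. Each HSC library came from 1 mouse, and each of 4 litters gave 1 deleted and 1 control mouse. Both groups carry the same strain label, Phf6lox/Y;Tie2-creTg/+, so all 8 mice are described as males with a floxed Phf6 allele, and the status label alone separates deleted from control. Whether the control mice lacked the Cre transgene cannot be read from the labels. Tie2-cre is active in endothelial cells and in all blood lineages from early development, so the deletion is not limited to HSC. No ages are given in the labels. Marrow cells carrying CD3, B220, GR1 or TER119 were removed on magnetic beads, and the rest were stained for cKIT, SCA1, CD150 and CD48 and sorted. HSC RNA was amplified with SMART-Seq v4, a kit for very little RNA that does not mark the strand.

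HSC are the rare, mostly resting cells at the root of blood formation, which renew themselves and give rise to all blood lineages. PHF6 is a chromatin and nucleolar protein with plant homeodomain (PHD) like zinc fingers, encoded on the X chromosome and mutated in human T-cell leukaemia. It is known to bind the nucleosome remodelling and deacetylase (NuRD) complex. Interferons act on HSC through surface receptors, JAK kinases and STAT proteins. Type I interferon drives transcription factors, IRF9 among them, onto a DNA element of paired GAAA repeats in the promoters of antiviral genes, and interferon gamma induces, through the transactivator CIITA, class II antigen presentation genes.

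The HSC libraries held 9658167 to 20426904 counts and 14212 to 15783 detected genes. In a principal component analysis of log2 CPM (counts relative to the TMM-scaled library size, used for all levels here), component 1 with 30.1% of the variance set deleted mouse 3 apart, and component 2 with 20.2% set deleted mouse 1 apart. Tested genes with no count at all numbered 419 and 610 in deleted mice 1 and 3, and 66 to 194 in the other 6 libraries. Of the genes at 0 in deleted mouse 3, 89 had a mean above 5 CPM in the other 7 libraries. The common biological coefficient of variation was 0.507 among deleted and 0.316 among control libraries, and 72.9% of genes had the larger standard deviation (SD) in the deleted group. Several of the gene groups are therefore also given without deleted mice 1 and 3, an alternative chosen after seeing the data. In that fit 3.39% of 14472 genes were higher and 3.3% lower at an unadjusted p under 0.05. Leaving out libraries that lay low or high for a group shifts its median, so these values are not separate evidence. Slamf1, the gene of the sort antigen CD150, was at 9.08 to 88.0 CPM in HSC against 0 to 3.43 CPM in MPP, and Ctnnal1, a long-term HSC marker, at 43.5 to 111 against 8.17 to 21.1 CPM, while Hlf was at 217 to 399 CPM in HSC against 560 to 1188 CPM in MPP and Procr at 62.4 to 124 against 137 to 187 CPM. Of 22 B and plasma cell markers 7 were at 0 in all 8 HSC libraries (Ms4a1, Pax5, Ebf1 and Cd22 among them) and 7 passed the filter on low counts. Of 20 T and NK cell markers 7 were at 0 in all 8 (Cd3e, Cd3g and Cd8a among them) and 3 passed, which were Nkg7, Lck and Klrb1c.

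**Figure D1:**
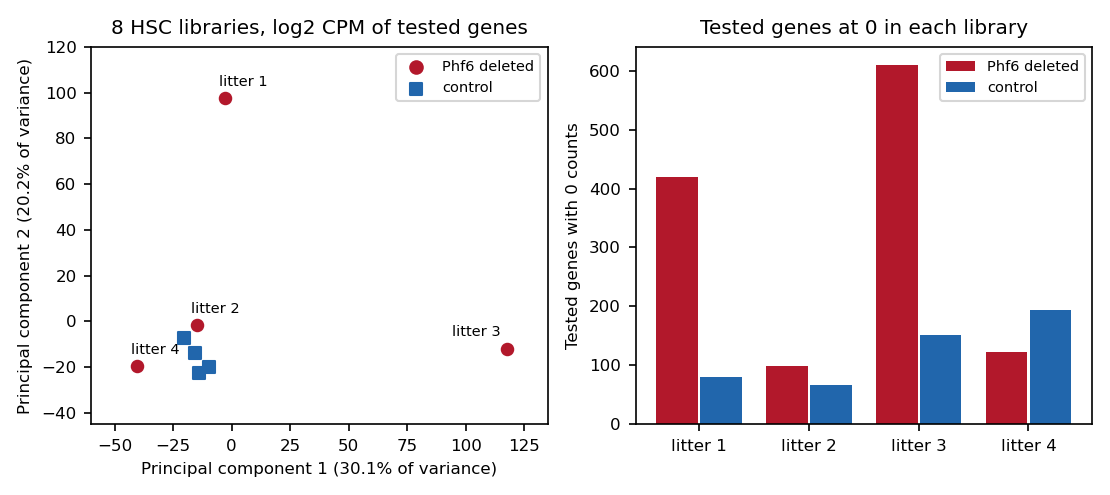
Left, the 8 HSC libraries on the first 2 principal components of log2 CPM (axes in component units, with the share of variance); right, the number of tested genes with 0 counts in each library (bars from 0), by litter, with deleted mice in red and controls in blue. The 4 control libraries and deleted mice 2 and 4 lie close together, deleted mouse 3 lies far along component 1 and deleted mouse 1 far along component 2, and these 2 libraries have the most genes at 0.

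Phf6 (Entrez identifier 70998, GRCm38 chromosome X from 52912214 to 52956961) checks the labels. It was at 37.8, 54.3, 54.5 and 80.2 CPM in deleted mice 1 to 4 against 185, 221, 244 and 224 CPM in control mice 1 to 4, numbered by litter. The groups did not overlap, and the fitted log2 fold change was -1.95 ± 0.22 (SE, edgeR adjusted p = 0.0211, n = 4 each). The remaining signal was 720 to 1266 counts per deleted library, or 17.3% to 36.7% of the control mean, lowest in deleted mouse 1 and highest in deleted mouse 4. The counts cover the whole gene, and the labels do not name the floxed exons, so reads from undeleted exons and undeleted cells cannot be told apart. In MPP of the same mice Phf6 was at -1.82 ± 0.18, and the difference of the effects was -0.14 ± 0.28 (edgeR adjusted p = 1). The HSC call ended without any 1 of control mice 1, 2, 3 or 4 or deleted mice 2 or 3 (adjusted p up to 0.253), without both deleted mice 1 and 3 (-1.68, adjusted p = 0.267), and in the litter-blocked fit (-1.99, adjusted p = 0.0606).

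Phf6 was the single gene past an adjusted p of 0.05 in edgeR, 0.0073% of the 13693 genes tested, and no gene was called higher (0%). At an unadjusted p under 0.05 there were 324 genes higher (2.37%) and 204 lower (1.49%) in deleted HSC. DESeq2 called 14 of 13668 genes (0.102%), of which 10 were higher (0.0732%) and 4 lower (0.0293%). All 4 deleted libraries lay above all 4 controls for 214 genes (1.56%) and below them for 215 (1.57%). The deleted mouse was above its littermate in 4 of 4 litters for 829 genes (6.05%) and below it for 927 (6.77%). DESeq2 with the litter as a block, added after seeing the data, called 16 genes higher (0.117%) and 8 lower (0.0584%), including all 14. The median log2 fold change of all tested genes was 0.006, with 50.8% of them above 0, and the median gene had a standard error of 0.27 and a 95% interval of 0.60 to either side. In what follows, no gene but Phf6 passed in edgeR (adjusted p of 0.95 or more, as rounded, for the others named). Adjusted p-values given for other genes are those of DESeq2 unless edgeR is named.

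Antiviral and signalling genes of the type I interferon response lay higher in deleted HSC in 51 of 55 tested members, with a median log2 fold change of 0.39 against 0.006 for all genes. Of these members 14 had an unadjusted edgeR p under 0.05, all higher, and in 7 the deleted libraries all lay above the controls, against 2.37% and 1.56% of all genes. Without deleted mice 1 and 3 the median was 0.48, and leaving out 1 library at a time gave 0.25 (without deleted mouse 4) to 0.44. Deleted mouse 3 was the lowest of its group for 26 of the 55 members, so leaving it out favours a higher median. Rsad2 encodes viperin, an enzyme that makes a chain-terminating ribonucleotide, and had the lowest unadjusted p of any gene placed higher. It was at 53.99, 64.6, 52.1 and 62.4 CPM in deleted mice 1 to 4 against 30.5, 31.2, 28.2 and 24.4 CPM in control mice 1 to 4, numbered by litter. Every deleted library lay above every control, with a log2 fold change of 1.03 ± 0.19 (edgeR unadjusted p = 0.000142, DESeq2 adjusted p = 0.0024). Its neighbour on chromosome 12, Cmpk2, a mitochondrial nucleotide kinase, was at 77.9, 53.96, 66.5 and 74.4 CPM in deleted and at 44.5, 47.2, 37.7 and 45.9 CPM in control HSC. The groups for Cmpk2 did not overlap either (0.64 ± 0.18, edgeR unadjusted p = 0.00466).

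Ifi44, an interferon-induced protein of the cytoplasm, was at 174, 123, 118 and 187 CPM in deleted mice 1 to 4 against 91.1, 62.9, 74.3 and 77.7 CPM in control mice 1 to 4, numbered by litter. This gave 0.97 ± 0.20 with no overlap (DESeq2 adjusted p = 0.00962). Irf9, a transcription factor of the type I interferon response, was at 177, 173, 134 and 233 CPM in deleted and at 132, 94.4, 120.3 and 99.05 CPM in control HSC, again without overlap (0.69 ± 0.19, edgeR unadjusted p = 0.00403). Cxcl10, a chemokine induced by interferon, was at 21.9, 8.09, 19.3 and 8.30 CPM in deleted and at 4.72, 0, 2.23 and 2.54 CPM in control HSC (2.59 ± 0.84, edgeR unadjusted p = 0.00997). Its control library of litter 2 held no count, and its deleted libraries of litters 1 and 3 were the highest. Without deleted mice 1 and 3 it was at 1.79 ± 1.01.

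The size of this difference varied over litters. On log2(CPM + 1), the median difference between deleted mouse and control littermate over the 55 members was 0.34, 0.40, 0.04 and 0.53 in litters 1 to 4, with 37, 44, 30 and 49 members higher in the deleted mouse. Litter 3 thus showed the smallest difference, and litter 4 the largest. The deleted library of litter 3 also held the most genes at 0, and the part of this in the difference was not tested. Over all tested genes the same litter medians were -0.003, -0.004, -0.03 and 0.002.

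Interferon-inducible GTPases of the IRG and GBP families, which attack the membranes around intracellular microbes, lay higher in 14 of 17 tested members (median 0.48). Of these 9 had an unadjusted edgeR p under 0.05, and 4 showed no overlap, against 2.37% and 1.56% of all genes. Iigp1 was at 214, 193, 127 and 136 CPM in deleted mice 1 to 4 against 107, 51.7, 65.4 and 61.8 CPM in control mice 1 to 4, numbered by litter. Its deleted libraries of litters 1 and 2 were the highest, and the lowest deleted value lay above the highest control (1.23 ± 0.25, DESeq2 adjusted p = 0.00652). Igtp was at 138, 144, 138 and 150.4 CPM in deleted and at 99.8, 73.9, 110.1 and 94.9 CPM in control HSC, with deleted libraries within a narrow range and all above the controls (0.59 ± 0.16, edgeR unadjusted p = 0.00308). Gbp10 was at 10.4, 12.5, 14.3 and 10.96 CPM in deleted and at 4.93, 0.875, 0.721 and 1.93 CPM in control HSC (2.50 ± 0.60, DESeq2 adjusted p = 0.0382). The list median was 0.61 without deleted mice 1 and 3, with 16 of 17 higher. Deleted mouse 3, left out there, was the lowest of its group for 14 of the 17, so that removal favours a higher median. Tgtp1 (0.48 ± 0.20) was the fourth member without overlap, while Irgm1 (0.46 ± 0.20), Irgm2 (0.55 ± 0.22), Tgtp2 (0.54 ± 0.22), Gm4951 (0.88 ± 0.29) and Gbp4 (0.84 ± 0.35) overlapped with unadjusted p under 0.05. Gbp2 was at -0.11 ± 0.28 and turned to 0.09 without deleted mouse 3. Many of these genes are close copies in clusters, and the labels do not say how their shared reads were counted. By litter the GTPase median was 0.55, 0.89, -0.22 and 0.66, and 7 of 17 members were higher in the deleted mouse of litter 3 against 15, 15 and 16 in the others. Control mouse 3 was the highest of the controls for 11 of the 17.

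The promoters of the interferon genes were searched for GAAANNGAAA on both strands, the core of the element bound by IRF9 and related factors, from 250 bases before to 50 after the first transcribed base in the RefSeq promoter table for GRCm38.p6. The motif was present for 19 of the 42 type I interferon genes with a promoter in the table (45.2%) and for 9 of 9 GTPase genes (100%), against 401 of 10407 tested genes (3.85%). It was present for 1 of 8 class II genes, 7 of 61 ribosomal protein genes (11.5%) and 0 of 25 S phase genes. A second motif searched, TTCNNNGAA, was present for 8 of 42 type I interferon genes (19%), 6 of 9 GTPase genes (66.7%) and 868 of 10407 tested genes (8.34%). Both interferon lists were written from known interferon-induced genes, so these shares describe the lists and not the deleted HSC. The 250 bases before the start of 3 genes that lay higher are shown because they hold the element in its different forms, written along the gene's strand with matches to GAAANNGAAA in capitals.
Rsad2: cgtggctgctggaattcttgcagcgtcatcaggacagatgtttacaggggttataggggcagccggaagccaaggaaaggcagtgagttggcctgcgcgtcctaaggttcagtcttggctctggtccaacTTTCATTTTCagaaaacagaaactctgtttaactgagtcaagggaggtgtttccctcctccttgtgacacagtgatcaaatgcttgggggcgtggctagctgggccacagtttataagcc
Igtp: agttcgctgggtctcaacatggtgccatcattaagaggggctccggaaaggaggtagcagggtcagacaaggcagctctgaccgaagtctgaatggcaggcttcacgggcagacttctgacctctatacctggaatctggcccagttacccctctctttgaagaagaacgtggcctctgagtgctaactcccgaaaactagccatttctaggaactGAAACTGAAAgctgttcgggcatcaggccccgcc
Irgm1: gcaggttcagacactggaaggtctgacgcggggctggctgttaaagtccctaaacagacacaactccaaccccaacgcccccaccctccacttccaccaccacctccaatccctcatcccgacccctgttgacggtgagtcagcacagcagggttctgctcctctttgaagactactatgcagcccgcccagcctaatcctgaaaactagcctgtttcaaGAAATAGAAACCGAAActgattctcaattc
Rsad2 (chr12:26456453-26456702, minus strand) holds 1 match on the opposite strand that begins 120 bases before the first transcribed base. Igtp (chr11:58199306-58199555, plus strand) holds 1 at -34, and Irgm1 (chr11:48871421-48871670, minus strand) 2 overlapping matches at -30 and -24. No match was found for Ifi44, Cmpk2 or Irf9. A match describes the letters only.

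Upstream of the response, 22 tested interferon receptors, kinases, sensors and feedback genes were balanced, with 13 higher and 9 lower, a median of 0.06 and none with an unadjusted p under 0.05. Interferon genes themselves were almost unread: Ifng and Ifna4 had 0 counts in all 8 libraries, and Ifnb1 had 0 in deleted and 2 in control libraries. Il18, an inflammasome cytokine that promotes interferon gamma production, was at 83.6, 69.4, 63.3 and 48.9 CPM in deleted and at 68.5, 36.1, 38.5 and 36.5 CPM in control HSC (0.56 ± 0.26, edgeR unadjusted p = 0.0489), and Il15 was at 0.24 ± 0.21. The control library of litter 1 lay within the deleted range for Il18. TNF and NF-kB pathway genes were even, with 15 of 30 higher and a median of 0.00.

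Class II antigen presentation genes lay higher in 10 of 11 tested members (median 0.51). Of these 3 had an unadjusted edgeR p under 0.05 and 3 did not overlap, against 2.37% and 1.56% of all genes. The median was 0.54 without deleted mice 1 and 3. H2-Ab1, the beta chain of the I-A molecule, was at 228, 179.8, 276 and 211 CPM in deleted mice 1 to 4 against 151, 83.7, 130 and 136 CPM in control mice 1 to 4, numbered by litter. All deleted values lay above all controls (0.83 ± 0.20, edgeR unadjusted p = 0.00159). H2-Aa, its alpha chain, was at 92.96, 78.4, 83.1 and 75.3 CPM in deleted and at 79.5, 33.4, 46.8 and 48.2 CPM in control HSC (0.66 ± 0.24), with the control of litter 1 within the deleted range. Cd74, the invariant chain that guides class II molecules to the loading compartment, was at 178, 188, 168 and 183 CPM in deleted and at 163, 89.9, 106 and 158 CPM in control HSC (0.48 ± 0.20). Its deleted libraries were alike and its controls were spread out. Ciita, the transactivator of these genes, was at 11.2, 6.58, 13.2 and 7.67 CPM in deleted and at 6.45, 5.51, 5.38 and 4.97 CPM in control HSC (0.79 ± 0.38, edgeR unadjusted p = 0.0582), with no overlap by a small margin. H2-Eb1 was at 0.63 ± 0.31, and H2-Oa, a part of the H2-O molecule that dampens loading, was the one member placed lower (-0.53 ± 0.30). The class II median by litter was 0.22, 0.49, 0.82 and 0.41, higher in each, and largest in litter 3 where the interferon genes differed least. Class I genes were near even (12 of 20 higher, median 0.02), with their regulator Nlrc5 at 0.44 ± 0.20 and the peptide transporter Tap1 at 0.32 ± 0.16. Macrophage and dendritic cell markers, cells rich in class II, summed to 126 to 201 CPM in deleted and 155 to 222 CPM in control HSC. Of the 16 listed, only Siglech and Marco were at 0 in all 8. The most abundant were Bst2, Flt3 and Cd68, of which Bst2 is also in the interferon list and Flt3 among the lymphoid priming genes. B cell and plasma cell markers summed to 356 to 546 and 438 to 606 CPM, with Xbp1, Cd24a and Cd79b the most abundant. Neither sum measures those cells alone, and their part in the class II result was not tested.

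**Figure D2:**
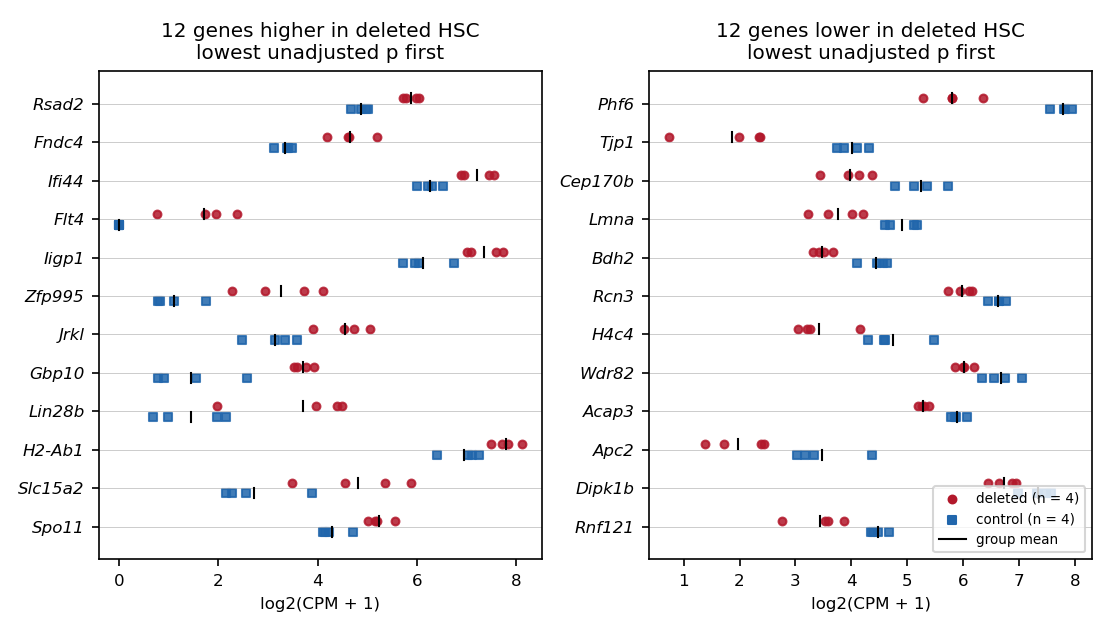
Levels as log2(CPM + 1) in each of the 8 HSC libraries for the 12 genes placed higher (left) and the 12 placed lower (right) with the lowest unadjusted edgeR p, 1 gene per row, with red circles for deleted (n = 4), blue squares for control (n = 4) and black lines for group means. Flt4 is at 0 in all 4 controls, Lin28b and Slc15a2 show overlapping groups on the left, and Phf6 heads the genes on the right.

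Outside the interferon and class II groups, the genes placed higher with the lowest p had varied functions. Lin28b, whose product holds back let-7 microRNAs and is typical of fetal blood stem cells, was at 2.94, 14.6, 19.97 and 21.5 CPM in deleted mice 1 to 4 against 0.971, 0.613, 3.48 and 2.94 CPM in control mice 1 to 4, numbered by litter. The deleted library of litter 1 lay within the control range and the other 3 lay far above it (2.87 ± 0.70, DESeq2 adjusted p = 0.0204). Hmga2, a chromatin protein repressed by let-7, was at 10.3, 20.8, 19.4 and 18.4 CPM in deleted and at 12.3, 8.93, 12.98 and 8.02 CPM in control HSC (0.70 ± 0.32, edgeR unadjusted p = 0.0503). It too was lowest among deleted libraries in litter 1, and the groups overlapped. Of 7 tested genes of the fetal stem-cell programme, 6 lay higher (median 0.35). That median was 0.13 without control mouse 2, 0.61 without control mouse 4 and 0.90 without deleted mice 1 and 3. Deleted mouse 1, left out in the last of these, was the lowest of its group for 3 of the 7.

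Fndc4, a membrane protein with a fibronectin type III domain, was at 35.9, 23.3, 23.8 and 17.2 CPM in deleted mice 1 to 4 against 9.57, 10.2, 9.38 and 7.71 CPM in control mice 1 to 4, numbered by litter (1.44 ± 0.29, DESeq2 adjusted p = 0.011). The groups did not overlap. Flt4, the receptor VEGFR3 of lymphatic endothelium, was at 4.19, 2.33, 2.88 and 0.697 CPM in deleted HSC and had no count in any control. With 178 counts in the deleted group, its pooled level was 44.2-fold that of a floor of 3 counts over the whole control group (DESeq2 adjusted p = 0.00652). That ratio carries no error for the spread among deleted libraries, so it is not a bound. Flt4 passed the filter on low counts only through the deleted group, where it is high, so its call is not separate support. In MPP and HPC-1 the controls held Flt4 at 1.41 ± 1.02 and 1.68 ± 0.63 CPM (SD, n = 4). The log2 fold changes there were 0.51 ± 0.80 and 0.52 ± 0.50 (SE). Of 10 endothelial and stromal markers tested, the median was 0.18, and -0.29 without deleted mouse 4. Without deleted mice 1 and 3 it was 0.62, with 3 of 10 higher at an unadjusted edgeR p under 0.05, against 3.39% of all genes. Cdh5 was at 0 in all 8 libraries, and the list summed to 207 to 361 CPM in deleted and 277 to 1031 CPM in control HSC. Slc15a2, a proton-coupled peptide transporter, was at 57.9, 10.1, 40.1 and 22.4 CPM in deleted and at 13.7, 3.85, 4.85 and 3.45 CPM in control HSC (2.32 ± 0.58, DESeq2 adjusted p = 0.0204), and was higher in the deleted mouse of every litter while the groups overlapped. Without deleted mice 1 and 3 it was at 1.33 ± 0.59.

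Zfp995, a zinc finger gene, was at 16.2, 6.63, 3.86 and 12.2 CPM in deleted and at 0.763, 1.14, 2.36 and 0.710 CPM in control HSC (2.95 ± 0.63, DESeq2 adjusted p = 0.00962). Jrkl, of a transposase-derived family, was at 25.5, 32.4, 13.9 and 22.1 CPM in deleted and at 11.03, 9.10, 7.80 and 4.57 CPM in control HSC (1.53 ± 0.36), and Spo11, the meiotic enzyme that cuts DNA, at 34.8, 35.5, 31.4 and 46.4 CPM in deleted and at 25.2, 16.2, 16.7 and 17.9 CPM in control HSC (0.96 ± 0.24). All 3 showed no overlap. Mcpt8, a protease of basophils, was at 14.6, 1.24, 42.2 and 32.3 CPM in deleted and at 0.763, 5.78, 0.852 and 0.812 CPM in control HSC (3.47 ± 0.97, DESeq2 adjusted p = 0.0204). Prss34, another basophil and mast cell protease, was at 33.6, 1.45, 79.8 and 69.6 CPM in deleted and at 2.98, 11.8, 0.262 and 0 CPM in control HSC (3.62 ± 1.38). Both were high in deleted mice 1, 3 and 4 and low in deleted mouse 2, and in litter 2 the control was above the deleted mouse. Among 8 tested markers of basophils and mast cells, 7 were placed higher (median 0.49). Fcer1a was at -1.55 ± 0.92, and Cma1, Mcpt4 and Tpsb2 were at 0 in all 8 libraries. The list median was 0.24 without deleted mouse 4, 1.20 without control mouse 1 and 0.595 without deleted mice 1 and 3. By litter the median of these markers was -0.19, -0.90, 0.61 and 1.67. The list summed to 65.1 to 191 CPM in deleted and 42.8 to 107 CPM in control HSC. The part of such cells in the Mcpt8 result was not tested. In sorted bulk RNA, fewer or more cells of a type and less or more RNA per cell cannot be told apart.

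Among genes placed lower, Tjp1, Cep170b and Lmna had the lowest unadjusted p after Phf6. Tjp1, the tight junction scaffold ZO-1, was at 2.99, 4.09, 0.681 and 4.18 CPM in deleted mice 1 to 4 against 12.3, 13.7, 16.1 and 18.98 CPM in control mice 1 to 4, numbered by litter. Every deleted library lay below every control, with the least in deleted mouse 3 (-2.35 ± 0.51, DESeq2 adjusted p = 0.011). Cep170b, a microtubule-associated relative of the centrosomal protein CEP170, was at 9.83, 19.8, 14.4 and 16.5 CPM in deleted and at 26.3, 51.6, 33.5 and 39.8 CPM in control HSC (-1.32 ± 0.29, DESeq2 adjusted p = 0.0344). Lmna, the gene of the nuclear lamins A and C, was at 8.33, 17.5, 15.1 and 10.96 CPM in deleted and at 23.4, 24.7, 33.9 and 34.8 CPM in control HSC (-1.17 ± 0.30, edgeR unadjusted p = 0.00205). The groups of both genes were apart.

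Rcn3, a calcium-binding protein of the endoplasmic reticulum, was at 67.4, 59.97, 51.97 and 70.5 CPM in deleted and at 98.9, 86.2, 108 and 98.7 CPM in control HSC (-0.65 ± 0.17), and Acap3, a GTPase-activating protein for ARF proteins, at 35.6, 37.4, 40.5 and 38.3 CPM in deleted and at 56.4, 53.8, 57.2 and 66.1 CPM in control HSC (-0.62 ± 0.17). These are modest differences with tight groups that did not overlap. Wdr82, a subunit of SET1 histone H3 lysine 4 methyltransferase complexes, was at 63.5, 56.4, 72.3 and 62.7 CPM in deleted and at 79.8, 106, 131 and 92.9 CPM in control HSC (-0.68 ± 0.19). Bdh2 (-1.04 ± 0.26), H4c4 (-1.40 ± 0.37), a histone H4 gene with near-identical copies, Apc2 (-1.81 ± 0.51), Dipk1b (-0.62 ± 0.18) and the RING finger gene Rnf121 (-1.06 ± 0.31) completed the 12. The predicted gene Gm4349, also called by DESeq2, was at 0, 0.0518, 0.227 and 0.127 CPM in deleted and at 6.31, 2.10, 3.08 and 1.32 CPM in control HSC, near the limit of detection in the deleted group (DESeq2 adjusted p = 0.011). Gm4349 passed the filter on low counts only through the control group. None of the 13 genes that DESeq2 called beside Phf6 passed in an edgeR fit with 1 library left out.

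Stem-cell identity genes were centred near 0. Of 33 tested transcription factors of stem-cell identity 13 lay higher and 20 lower (median -0.06), and of 29 genes enriched in long-term HSC 17 lay higher and 12 lower (median 0.11). Without deleted mice 1 and 3 the split was 23 higher and 10 lower for the transcription factors (median 0.10), and 20 higher and 9 lower for the long-term HSC genes (median 0.15). Of the latter 5 were higher and 2 lower at an unadjusted edgeR p under 0.05, against 3.39% and 3.3% of all genes in that fit. Deleted mouse 3, left out there, was the lowest of its group for 14 of the 29 long-term HSC genes. Intervals of single genes in the fit of all 8 libraries bound the size of a difference. Meis1 was at -0.15 (95% interval -0.53 to 0.23), Mecom at -0.09 (-0.57 to 0.38), Hlf at -0.07 (-0.56 to 0.42) and Runx1 at 0.15 (-0.24 to 0.54). The surface receptor gene Procr was at -0.02 (-0.53 to 0.48), while Fgd5 at 0.17 (-0.60 to 0.93) and Hoxb5 at 0.11 (-0.62 to 0.85) were less precise. These genes beyond the rule for named genes were picked as well-known markers, after their values were seen. The median turned to 0.03 for the transcription factors without deleted mouse 1 or deleted mouse 3, and to -0.04 for the long-term HSC genes without deleted mouse 4.

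The exceptions with the lowest p ran in both directions. Slc22a3, an organic cation transporter of the long-term HSC list, was at 94.4, 142, 132 and 82.7 CPM in deleted and at 179.7, 165, 189 and 171 CPM in control HSC, below every control in all deleted libraries (-0.64 ± 0.19, edgeR unadjusted p = 0.00532). Ctnnal1, alpha-catulin, was at 63.4, 95.4, 111 and 58.5 CPM in deleted and at 46.3, 64.2, 51.2 and 43.5 CPM in control HSC (0.68 ± 0.24), and the lectin Clec1a at 44.1, 50.9, 36.01 and 67.7 CPM in deleted and at 37.2, 36.2, 31.7 and 21.4 CPM in control HSC (0.65 ± 0.25). Both were higher in the deleted mouse of every litter, with overlapping groups. Prdm16, a factor needed for HSC maintenance, was at 23.9, 20.7, 20.8 and 29.02 CPM in deleted and at 33.02, 34.05, 31.1 and 33.2 CPM in control HSC and did not overlap (-0.48 ± 0.21, edgeR unadjusted p = 0.0443). Pbx3, a partner of HOX proteins, was at 0.66 ± 0.23, and Gata2 at -0.25 ± 0.14.

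Of the sort antigens, Kit was at -0.19 (95% interval -0.66 to 0.27), Ly6a, the gene of SCA1, at 0.11 (-0.31 to 0.53) and Cd48 at 0.36 (-0.76 to 1.49). Slamf1 was at 47.1, 38.6, 9.08 and 52.9 CPM in deleted and at 52.7, 65.6, 87.99 and 67.1 CPM in control HSC and gave -0.89 with a 95% interval of -1.79 to 0.01. Deleted mouse 3 was far below the other libraries, and without deleted mice 1 and 3 the value was -0.56 ± 0.25. As the cells were sorted on these proteins, their transcripts describe the gate as well as the genotype. Cd27 was at 102, 88.4, 120 and 147 CPM in deleted and at 165, 149, 147 and 149 CPM in control HSC, with no overlap by a small margin (-0.42 ± 0.17, edgeR unadjusted p = 0.0347).

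**Figure D3:**
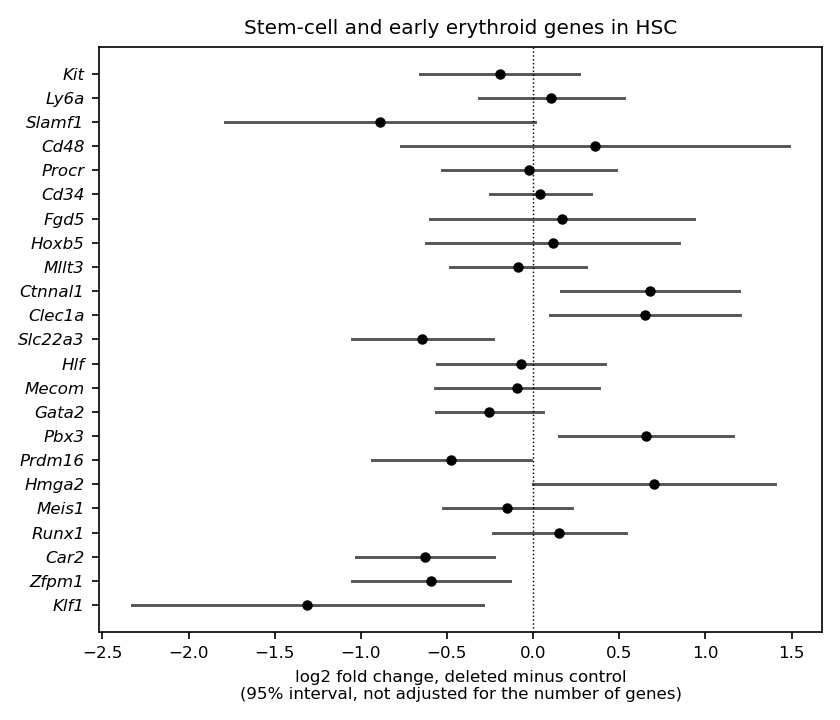
Log2 fold change of deleted against control HSC with its 95% interval (edgeR, not adjusted for the number of genes) for 23 stem-cell, sort antigen and early erythroid genes, with a dotted line at 0. Most intervals span 0. Ctnnal1, Clec1a and Pbx3 lie above it and Slc22a3, Prdm16, Car2, Zfpm1 and Klf1 below it.

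Lineage genes were uneven. Early erythroid genes divided evenly, with 9 of 18 higher and a median of -0.11. The 3 with an unadjusted edgeR p under 0.05 all lay lower, as did 1.49% of all genes at that level. Car2, carbonic anhydrase 2, was at 1487, 1488, 1075 and 894 CPM in deleted and at 1896, 2133, 1972 and 1639 CPM in control HSC, with no overlap (-0.63 ± 0.18, edgeR unadjusted p = 0.00511). Zfpm1, the GATA1 partner FOG1, was at 82.6, 110.5, 130.3 and 156 CPM in deleted and at 137, 208, 180 and 198 CPM in control HSC (-0.60 ± 0.21), and Klf1, an erythroid factor, at 16.8, 20.3, 5.14 and 12.99 CPM in deleted and at 19.01, 22.8, 30.1 and 65.8 CPM in control HSC (-1.31 ± 0.47). Both were lower in the deleted mouse of every litter with overlapping groups. The erythroid list summed to 1424 to 2117 CPM in deleted and 2415 to 2737 CPM in control HSC, with Car2 adding the most. The list median turned to 0.23 without control mouse 4 and to 0.05 without deleted mouse 1, and without deleted mice 1 and 3 it was 0.31, with 12 of 18 higher. Megakaryocyte genes had a median of 0.13 (14 of 20 higher, none with an unadjusted p under 0.05).

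Neutrophil and monocyte markers were placed higher in 18 of 18 members (median 0.64), yet none had an unadjusted p under 0.05 and none was free of overlap. The median by litter was -1.05, 0.08, 1.05 and 2.28, and without deleted mouse 4 the median of the list was -0.38. It was 1.26 without deleted mice 1 and 3, where deleted mouse 3 was the lowest of its group for 16 of the 18. Deleted mouse 4 held the highest level of its group for 17 of the 18, and control mouse 1 for 18 of 18. Their summed level was 2151 to 13596 CPM in deleted and 1206 to 9008 CPM in control HSC. In the interferon list litter 4 was also the litter with the largest difference. The part of mature myeloid cells in that was not tested. The interferon median was 0.25 without deleted mouse 4, and 0.34, 0.40, 0.04 and 0.53 in litters 1 to 4.

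Growth programmes varied between litters. Of 31 S phase genes 13 lay higher (median -0.07) and of 30 genes of G2 and M phase 13 lay higher (median -0.02), with none at an unadjusted p under 0.05 in either. In litters 1, 2 and 3 the G2 and M phase median was 0.13, 0.17 and 0.16, and in litter 4 it was -0.74, with 0 of 30 members higher in the deleted mouse. Ube2c, a ubiquitin-conjugating enzyme of mitotic exit, was at 117, 93.2, 100.4 and 42.01 CPM in deleted and at 116, 111, 90.02 and 116 CPM in control HSC, with deleted mouse 4 the lowest. Without deleted mouse 4 the median became 0.18 for this list and 0.07 for S phase genes. Both medians lay below 0 without deleted mice 1 and 3, at -0.21 and -0.15. D cyclins, G1 kinases and their inhibitors had a median of -0.10, with 7 of 23 higher.

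Cytosolic ribosomal protein genes lay lower in 66 of 82 members (median -0.17), with none at an unadjusted p under 0.05. They lay higher in the deleted mouse of litters 1 and 3 (68 and 74 of 82) and lower in litters 2 and 4 (11 and 0 of 82 higher). The deleted mice of litters 1 and 3 are those whose libraries stood apart, and without them the median was -0.52, with 34 members lower at an unadjusted p under 0.05 (41.5%, against 3.3% of all genes in that fit). Those mice were the highest of the deleted group for 37 and 45 of the 82 members. Leaving them out thus keeps only the 2 deleted libraries that lay low, and members that move together are not separate evidence. Ribosome biogenesis genes, of interest because PHF6 is found in the nucleolus, were near even (17 of 42 higher, median -0.06), with the polymerase I initiation factor gene Taf1b at 0.58 ± 0.22, the processome gene Wdr43 at 0.44 ± 0.17 and the snoRNP gene Gar1 at -0.33 ± 0.14. Nuclear genes of oxidative phosphorylation divided 21 higher and 29 lower (median -0.02), and swung from 46 of 50 higher in litter 3 to 2 of 50 in litter 4. Leaving out 1 library moved that median from -0.19 (without deleted mouse 3) to 0.07 (without deleted mouse 4). Without deleted mice 1 and 3 it was -0.30, with 46 of 50 lower and 8 of them at an unadjusted p under 0.05 (16% against 3.3% of all genes). Deleted mouse 3, left out there, was the highest of its group for 40 of the 50, so the same limit holds. All 13 mitochondrially encoded protein genes lay lower (median -0.26), none at an unadjusted p under 0.05, and the median was -0.02 without deleted mouse 3, -0.66 without deleted mouse 1 and -0.32 without both. Mitochondrial transcripts took 1.4% to 3.45% of counts over the 8 libraries.

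**Figure D4:**
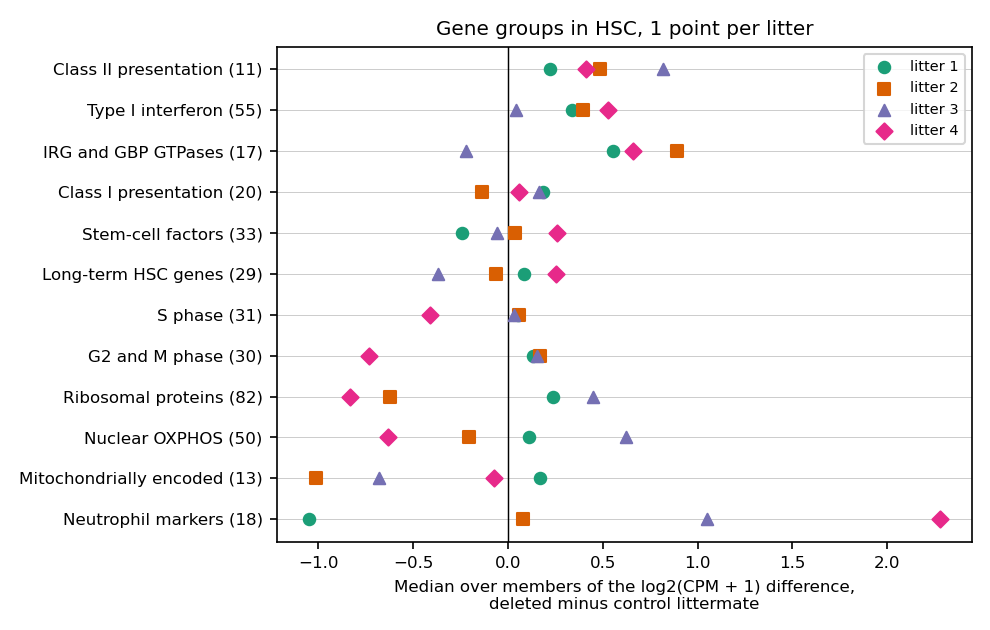
For 12 gene groups (number of tested members in brackets), the median over members of the log2(CPM + 1) difference between the deleted mouse and its control littermate, with 1 symbol per litter and a line at 0. Class II genes lie above 0 in all 4 litters, type I interferon genes in all 4 with litter 3 close to 0, and neutrophil markers range from -1.05 to 2.28.

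Genes whose products work with PHF6 were examined next. NuRD complex genes lay lower in 12 of 14 tested members (median -0.18), none with an unadjusted p under 0.05. PAF1 complex and elongation genes had a median of -0.09 (8 of 20 higher), with Paf1 itself at 0.41 ± 0.16. Of 17 tested genes near Phf6 on the X chromosome 11 lay higher (median 0.10). Ints6l, an integrator complex relative near Phf6, was at 146, 164, 148 and 191 CPM in deleted and at 113, 103, 132 and 119.8 CPM in control HSC, with no overlap (0.47 ± 0.15, edgeR unadjusted p = 0.0105), and Rbmx, an RNA-binding protein gene, at 0.47 ± 0.19. Targets of p53 had a median of -0.15 (7 of 23 higher), with Sesn1, a stress-induced sestrin, at 0.60 ± 0.18.

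Finally, the effect in HSC was set against that in MPP, sorted from the same 8 mice and made with the same kit. The fit held no term for the mouse, so its errors and p-values treat libraries of the same mouse as independent. Of 14561 genes none had a differing effect in edgeR (0%), 417 (2.86%) had an unadjusted p under 0.05, and DESeq2 called 2 of 14510 (0.0138%), Dsc2 and Maneal (edgeR unadjusted p = 0.0303 and 6.72e-05). In MPP, deleted mouse 3 had 9.34% of its counts in its top 10 genes, against 2.95% to 5.08% in the other 7 MPP libraries. A list of 10 genes reported earlier from these data as past the threshold in MPP or HPC-1 held 6 placed higher and 4 placed lower in HSC. In HSC 7 of them had an unadjusted edgeR p under 0.05, against 3.86% of all genes, and the list was chosen on these mice. Slc6a15, a transporter of neutral amino acids, was at 106, 88.8, 48.3 and 78.9 CPM in deleted and at 47.2, 35.02, 52.7 and 15.4 CPM in control HSC (1.10 ± 0.35), with the deleted mouse above its littermate in 3 of 4 litters. Sdsl, a serine dehydratase relative, was at 110, 67.3, 103 and 101 CPM in deleted and at 132, 146, 130.2 and 185 CPM in control HSC, without overlap (-0.64 ± 0.19). Serpina3f was at 0.96 ± 0.37, Zfp532 at -0.83 ± 0.37, Adgrl1 at -0.50 ± 0.37 and Col4a2 at -0.37 ± 0.30.

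Lin28b was at 2.87 ± 0.70 in HSC and 7.43 ± 0.73 in MPP, where control levels were 0.034 ± 0.040 CPM (SD, n = 4) against 2.00 ± 1.42 CPM in control HSC. The fitted difference of effects was -4.54 ± 1.10 (edgeR adjusted p = 1), and its size depends on the prior count. In the fit of MPP alone, Lin28b passed the filter on low counts only through the deleted group. Deleted levels were 14.7 ± 8.41 CPM in HSC and 6.69 ± 1.61 CPM in MPP. For Rsad2 the difference of effects was -0.49 ± 0.37, for Iigp1 -0.02 ± 0.32 and for Ifi44 0.09 ± 0.30, each with edgeR adjusted p = 1. Over the whole type I interferon list the fitted log2 fold change was lower in HSC than in MPP for 39 of 55 members. The same held for 7611 of all 14561 genes. The median difference was -0.20 for the list against -0.02 for all genes. Of the 55 members only Trim30a (1.82%) had a lower effect in HSC at an unadjusted edgeR p under 0.05, against 1.92% of all genes. Over the GTPases the fold change was lower in HSC for 16 of 18 (median -0.54). The GTPase median was 0.97 in MPP, with 18 of 18 higher, against 0.48 in HSC. Gbp6 (-1.50 ± 0.66), Gbp8 (-0.96 ± 0.43), Gm4951 (-0.94 ± 0.40) and Gvin1 (-2.55 ± 1.08) had an unadjusted edgeR p under 0.05 for the difference, with edgeR adjusted p = 1. Of all genes 1.92% had a lower effect in HSC at that unadjusted level. Of 11 class II genes 8 had the lower fold change in HSC, while the list medians were 0.51 in HSC and 0.46 in MPP. Among them Cd74 was in MPP at 1.44 ± 0.27, H2-Aa at 1.54 ± 0.23 and H2-Ab1 at 1.35 ± 0.22, with differences of -0.98 ± 0.34 (edgeR unadjusted p = 0.0105), -0.88 ± 0.34 (0.0172) and -0.52 ± 0.30 (0.103). H2-Eb1 was the third class II gene with an unadjusted edgeR p under 0.05 (-0.99 ± 0.37), and all had edgeR adjusted p = 1. Zfp995 was at 0.02 ± 0.51 in MPP (difference 2.93 ± 0.82) and Ldlrad4, an inhibitor of TGF-beta signalling, at 3.12 ± 0.91 in HSC and 0.30 ± 0.36 in MPP (difference 2.82 ± 0.81). In the HSC fit Ldlrad4 passed the filter on low counts only through the deleted group, with control HSC at 0.069 to 0.459 CPM.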

How the data were processed

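The values deposited by the authors are whole-number counts of reads per gene, for which the submitters' processing notes name bcl2fastq, featureCounts and mm10, from 80 bp paired reads per the labels. No aligner, annotation or strand option is stated, and HSC reads from genes that overlap or lie antisense to each other cannot be separated. Of 27179 Entrez identifiers, 25275 were named from the RefSeq table of GRCm38.p6 and 18 from GENCODE, and 1886 had no name. Unnamed identifiers were tested where they passed the filter on low counts. Total counts ran from 9658167 to 20426904 per HSC library, which sets the counting error, and amplified reads are not independent molecules.

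Deleted and control HSC (4 against 4, grouped by the labels) were fitted in R 4.3.3 with edgeR 4.0.16, using TMM, filterByExpr (minimum count 10, minimum total 15), the robust quasi-likelihood test, and Benjamini-Hochberg adjustment over all genes with a threshold of 0.05. The standard error is the log2 fold change divided by the square root of F. The fit was tested on simulated data. DESeq2 1.42.0, limma-voom (limma 3.58.1), other scaling and filters, a litter block and leaving out each library were alternatives, and DESeq2 or limma-voom with the block, library weights and leaving out deleted mice 1 and 3 were added later. HSC and MPP effects were compared in 1 fit of 16 libraries from the same 8 mice. That fit held no term for the mouse, and a fit with the mouse as a block was an alternative.

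The genes and the 40 gene lists were chosen with earlier results of these data known. Named are Phf6, genes called by any of the fits, the 12 genes in each direction with the lowest unadjusted p, up to 4 members with the lowest p of each list, and all members of 5 short lists. Predicted genes were left out of the ranks. Stem-cell markers in the text beyond these were chosen after their values were seen.

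The replicate number is the litter in the labels, so the numbers pair a deleted with a control mouse. Deviations from the group means correlated across genes at 0.010, 0.015, 0.055 and 0.016 for litters 1 to 4, and at -0.097 to 0.063 for other pairs. Genes are not independent replicates. In either group, no pair of libraries agreed within sampling noise, with a chi-square per degree of freedom of at least 19.6. Pairs of a deleted with a control library were not checked in this way.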

Additional observations from a re-analysis of the deposited data

Results flagged for a closer look

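Of 208 groups of 4 HSC libraries screened, 11 (5.29%) held 1 library far from the other 3, meaning that its gap to the nearest was a larger share of the group's range than Dixon's critical value allows. Chance alone flags about 5% of groups.

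Among deleted libraries, H4c4 was highest in deleted mouse 1 at 16.8 CPM against 7.22 to 8.60 in the others, Gvin1, a large interferon-inducible GTPase, was highest in deleted mouse 4 at 9.315 CPM against 4.085 to 4.354, and Rpl5, a ribosomal protein of the large subunit, was lowest in deleted mouse 4 at 17.9 CPM against 39.9 to 44.0. Deleted mouse 1 also stood apart on principal component 2 at 97.5, against -19.6 to -1.74.

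Among controls, mouse 1 was highest for Slc15a2 (13.7 CPM against 3.45 to 4.85), Il18 (68.6 CPM against 36.2 to 38.5) and Cd27 (165 CPM against 147 to 149). It was also highest for Col1a2 (418.7 CPM against 2.334 to 8.327). Control mouse 2 was highest for the basophil protease Mcpt8 (5.78 CPM against 0.763 to 0.852). Control mouse 3 was highest for the GTPase Irgm2 (95.3 CPM against 57.5 to 62.7), and control mouse 4 for Apc2 (19.6 CPM against 7.15 to 9.10).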

How the results depend on the processing

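The number of genes past the threshold was 1, and was 14 in DESeq2. It was 24 in DESeq2 with litter as a block (0.175%), which held all 14 of DESeq2. It was 0 with litter as a block in edgeR, 0 without both deleted mice 1 and 3, and 0 to 1 when leaving out 1 library. For genes with a differing effect in HSC and MPP the number was 0, also in edgeR with the mouse as a block, and 2 in DESeq2. The calls that the litter block added in DESeq2 were H2-Ab1, Cxcl10, Lgr5, Nrk, Clca3a1 and an unnamed identifier (higher), and Car2, Lrig3, Zmat3 and Ptges (lower). Their log2 fold changes ran from -6.74 to 6.02. Phf6 kept its direction in every fit: it passed in 11 alternatives and missed the threshold in 8, with -1.99 under the litter block, -1.68 without both deleted mice 1 and 3, and -2.17 to -1.78 when leaving out 1 library. The block ended the call of Phf6 in edgeR and no other edgeR call existed. Directions turned for Gbp2 without deleted mouse 3 (range over single libraries -0.404 to 0.0923), Ly6a (-0.0334 to 0.251) and Cd34 (-0.0322 to 0.0901) without deleted mouse 4, and Procr (-0.184 to 0.145) without control mouse 1 or deleted mouse 3 (0.125). They turned too when leaving out 1 library for Col1a2 (-4.32 to 0.602), Fgd5 (-0.196 to 0.413), Hlf (-0.303 to 0.0484), Hoxb5 (-0.0595 to 0.275), Mecom (-0.247 to 0.0795), Gbp6 (-0.0967 to 0.681) and Gbp8 (-0.19 to 0.283). With library weights they turned for Procr (0.105), Hoxb5 (-0.0717), Mecom (0.0315) and Gbp8 (0.244), and without both deleted mice 1 and 3 for Kit (0.107), Hlf (0.231), Mecom (0.147), Meis1 (0.0854) and Gbp8 (0.0205). Gbp8, near 0, also turned in limma-voom (0.034) and with the litter block (0.0587 in edgeR, 0.0659 in DESeq2 and 0.0184 in limma-voom). The cause was not tested. Of the genes recomputed, those to which the text gives a value, 1742 values kept their direction and side of the threshold, and 29 passed only in DESeq2 with or without the block. Of the list medians, 470 moved by less than 1 SD of the list's median level between replicates and 10 by more. Other size factors moved the median of all genes by 0.007. The spread between deleted libraries, with a median interval of 0.60 to either side, limits what a single gene can show.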

Other observations

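Glycolysis and glucose uptake genes lay lower in 22 of 25 members (median -0.14), with the hexokinase gene Hk2 at -0.61 ± 0.25, and without deleted mice 1 and 3 the list was even (13 higher and 12 lower, median 0.001). Heat shock and unfolded protein genes lay lower in 14 of 15 (median -0.19), and 12 of 15 lay lower without those mice. In HPC-1 of the same mice 14 of 16 such genes also lay lower (median -0.19). No member of the heat shock list had an unadjusted edgeR p under 0.05 in HSC, and 1 glycolysis gene, placed lower, did, against 1.49% of all genes.

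Immediate early genes, the first to respond to handling of cells, were highest in control mouse 1 for 16 of 17 members, counted among controls. The list median was -0.17 and became 0.58 without that library. Col1a2, a collagen gene of stromal cells, was at 419 CPM in the same library and at 0 to 11.9 CPM in the other 7. Hs6st2, a heparan sulfate sulfotransferase gene near Phf6 on the X chromosome, was at 0 in deleted mice 1 and 3, at 2.85 and 3.17 CPM in deleted mice 2 and 4, and at 3.45 to 6.52 CPM in controls. The dissimilar values within the deleted group gave -1.83 ± 1.22.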
